A study of Mus musculus with 10 samples.

Results

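Fixed 100 kb windows of the mouse genome that held 20 or more accessible regions were examined. The table listed 94823 regions of open chromatin. Each chromosome was cut into windows from position 0, and each region was placed by its midpoint. Of the 13753 windows with any region, 747 (5.43%) reached 20, and they held 19435 regions. Regions that held the start of a protein-coding gene (1239) and further regions of 1 kb or more (502) were then left out, so that 17694 regions remained, 18.7% of the table. These regions are called dense regions here, and the 65639 regions kept by the same 2 exclusions outside the 747 windows are called other regions. The regions were the peaks called in any of these same libraries, so which windows reached 20 depended on what was called open in them. No comparison of groups entered the rule, but a region open in 1 group only also counted toward the 20.

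The assay was ATAC-seq, which reads open chromatin from where a transposase inserts sequencing adapters, on invariant natural killer T (iNKT) cells sorted from the thymus. The study asked how the strength of T cell receptor signalling shapes the chromatin of the iNKT1 and iNKT2 subsets. Donor mice were BALB/c or SKG, the latter with a partial loss-of-function allele of Zap70, the kinase next to the receptor, on the BALB/c background. There were 10 libraries, of which 2 were iNKT1 and 3 were iNKT2 in each strain, so that 4 groups of subset and strain resulted. By the study's methods, iNKT1 cells were sorted as CD27+ CD122+ and iNKT2 cells as CD27+ CD122-, so that Il2rb, which encodes CD122, was part of the gate. The labels gave no age, sex or treatment, but the study's methods give an age range in weeks and state that mice were age-matched. The labels also did not say whether replicates came from separate animals. The p-values therefore measure the spread between these libraries, which may be technical.

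Enhancers are stretches of DNA, often far from a gene's start, where transcription factors bind and raise the gene's transcription, and they are open in the cells that use them. Genes that define a cell type often have many enhancers close together, and such clusters have been described as super-enhancers or locus control regions. iNKT1 cells resemble type 1 helper and natural killer cells and depend on the T-box factor T-bet (Tbx21), whereas iNKT2 cells make interleukin 4, carry the interleukin 25 receptor chain Il17rb and keep a high level of the factor PLZF (Zbtb16). Both arise in the thymus from precursors selected through their receptor.

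The reference sequence (GRCm38, which is mm10, plus strand, 5′ to 3′) of 9 regions is given first, since each had the smallest adjusted p in a window among those that changed most. Further regions of such windows that hold motif letters are not printed, for length. Each sequence is the 300 bases around the region's midpoint in which motifs were searched. Capitals mark letters of the motif list on either strand, and a match describes letters, not binding. The first sequence lies in an intron of Chdh beside Il17rb (chr14:30024401-30024700), and its capitals mark the ETS letters. The second lies in an intron of Fam169b in the Igf1r window (chr7:68285905-68286204) and holds the TCF letters. The third, between genes in the Klrd1 window (chr6:129545257-129545556), holds the ETS letters at 2 places. The fourth lies between genes in a window without a protein-coding gene (chr2:128407116-128407415) and holds the T-box letters. The fifth, in an intron of Ptpn5 (chr7:47113382-47113681), holds the GATA and AP-1 letters and the T-box letters at 2 places.
Il17rb window: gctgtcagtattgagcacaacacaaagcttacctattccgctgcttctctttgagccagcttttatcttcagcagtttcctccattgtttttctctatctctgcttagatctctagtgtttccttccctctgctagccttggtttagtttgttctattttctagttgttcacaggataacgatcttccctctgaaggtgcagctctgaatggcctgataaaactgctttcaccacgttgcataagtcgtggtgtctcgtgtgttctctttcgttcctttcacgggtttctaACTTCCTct
Igf1r window: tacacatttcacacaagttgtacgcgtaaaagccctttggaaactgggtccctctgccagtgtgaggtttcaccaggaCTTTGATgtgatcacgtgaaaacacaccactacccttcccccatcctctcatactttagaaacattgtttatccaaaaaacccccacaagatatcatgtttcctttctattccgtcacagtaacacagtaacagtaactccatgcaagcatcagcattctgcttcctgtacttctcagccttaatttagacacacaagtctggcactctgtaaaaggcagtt
Klrd1 window: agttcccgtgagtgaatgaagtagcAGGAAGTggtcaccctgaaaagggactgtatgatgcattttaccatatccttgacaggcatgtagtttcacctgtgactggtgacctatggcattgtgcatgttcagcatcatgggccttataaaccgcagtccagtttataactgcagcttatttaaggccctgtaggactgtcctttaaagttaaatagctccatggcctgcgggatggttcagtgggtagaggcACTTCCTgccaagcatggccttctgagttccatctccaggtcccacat
Gm14005 window: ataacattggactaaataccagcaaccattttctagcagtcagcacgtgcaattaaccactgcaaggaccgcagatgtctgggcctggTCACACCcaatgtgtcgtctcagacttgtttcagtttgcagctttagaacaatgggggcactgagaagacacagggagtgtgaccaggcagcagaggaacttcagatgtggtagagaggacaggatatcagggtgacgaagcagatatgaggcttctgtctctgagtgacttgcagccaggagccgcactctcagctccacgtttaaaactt
Ptpn5 window: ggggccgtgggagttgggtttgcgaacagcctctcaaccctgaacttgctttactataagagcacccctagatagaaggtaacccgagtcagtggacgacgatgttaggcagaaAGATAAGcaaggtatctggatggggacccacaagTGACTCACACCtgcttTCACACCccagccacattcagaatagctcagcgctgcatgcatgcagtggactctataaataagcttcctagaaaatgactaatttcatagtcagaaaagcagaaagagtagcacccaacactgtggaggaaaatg

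The other 4 sequences belong to windows that differed between SKG and BALB/c iNKT2 cells. The Ly6 region (chr15:74918493-74918792, between genes) held none of the letters searched. The Farp1 region (chr14:121102624-121102923, intron) holds the T-box and the Egr letters. The Ptprj region (chr2:90503358-90503657, intron) holds the NFAT and the RUNX letters. The region near Trbc1 and Prss2 (chr6:41556387-41556686, between protein-coding genes) holds the NF-kB letters.
Ly6 window: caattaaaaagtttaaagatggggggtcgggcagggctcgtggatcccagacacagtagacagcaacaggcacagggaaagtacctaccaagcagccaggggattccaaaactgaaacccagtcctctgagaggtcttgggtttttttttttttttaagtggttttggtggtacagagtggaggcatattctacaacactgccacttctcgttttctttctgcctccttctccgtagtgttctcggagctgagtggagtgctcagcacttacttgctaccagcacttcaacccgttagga
Farp1 window: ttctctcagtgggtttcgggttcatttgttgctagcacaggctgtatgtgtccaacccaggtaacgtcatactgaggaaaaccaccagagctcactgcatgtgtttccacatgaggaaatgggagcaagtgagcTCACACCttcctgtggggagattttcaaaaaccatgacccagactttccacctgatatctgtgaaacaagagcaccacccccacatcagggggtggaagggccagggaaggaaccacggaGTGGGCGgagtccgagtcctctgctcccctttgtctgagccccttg
Ptprj window: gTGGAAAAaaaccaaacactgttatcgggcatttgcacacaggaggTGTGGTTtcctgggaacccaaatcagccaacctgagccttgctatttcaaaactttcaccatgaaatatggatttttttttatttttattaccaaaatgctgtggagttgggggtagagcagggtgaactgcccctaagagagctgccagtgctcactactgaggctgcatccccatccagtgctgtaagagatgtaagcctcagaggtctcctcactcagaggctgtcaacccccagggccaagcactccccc
Trbc1 window: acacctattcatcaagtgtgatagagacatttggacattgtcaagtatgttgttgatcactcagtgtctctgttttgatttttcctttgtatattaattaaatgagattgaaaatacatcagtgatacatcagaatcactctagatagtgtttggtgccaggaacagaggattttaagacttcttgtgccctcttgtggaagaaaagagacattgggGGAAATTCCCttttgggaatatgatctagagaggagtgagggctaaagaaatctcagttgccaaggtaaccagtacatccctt

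A dense window held a median of 24 regions and at most 62, against a median of 5 over all windows. There were 153 windows with 30 or more regions and 34 with 40 or more. Of the 747 windows, 482 stood alone, 87 pairs were adjacent, and 28 runs had 3 or more. The longest run, of 5 windows, covered chr10:81100001-81600000 and included S1pr4, Matk and Zbtb7a. Runs of 3 covered Ikzf1, the Il4, Il13 and Il5 cluster with Irf1, Prkcq, Cd4 with Lag3, Fli1 with Ets1, and Zbtb16. The bodies of 2070 protein-coding genes overlapped the windows, with a median of 2 genes in a window and at most 15, while 30 windows overlapped none and 246 overlapped 1. Chromosome 7 had 66 dense windows and chromosome X had 9. Just outside the rule, the 140 windows of exactly 19 regions had a median log2 change between BALB/c iNKT2 and iNKT1 of -0.42, and the 96 windows of exactly 20 had -0.41.

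The position of dense and other regions was described with no test. Introns held 56.1% of dense and 45.8% of other regions, and intergenic DNA held 31.5% and 40.8%. The median distance to the neighbouring region was 1364 bp for dense and 4390.5 bp for other regions, as the rule requires, and the median distance to a protein-coding gene start was 18562.5 bp and 21896 bp. The median level was 3.35 CPM in dense and 2.32 CPM in other regions. CPM are the insertions of a region as a share of its library's total, scaled by the trimmed mean of M values (TMM), and all levels are given in them. Dense regions held 10.8% to 14.1% of all insertions of a library, 13.8% and 14.1% in BALB/c iNKT1 and 10.8%, 11.7% and 13.0% in BALB/c iNKT2.

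Motif letters were counted in dense and other regions and in classes of dense regions, with no test of the shares. The T-box letters (GGTGTGA) were in 6.19% of dense and 5.67% of other regions, the NFAT letters (TGGAAAA) in 6.59% and 7.07%, and the TCF letters (CTTTGAT) in 5.65% and 6.40%. Among dense regions called higher in BALB/c iNKT1, 14.5% held the T-box letters, against 3.51% of those called higher in BALB/c iNKT2 and 5.62% of those not called. The RUNX letters (TGTGGTT) were in 19.9%, 13.5% and 12.8% of the same classes, highest in the iNKT1-high regions. The TCF letters went the other way, with 3.88% in iNKT1-high, 12% in iNKT2-high and 5.14% in uncalled dense regions. The NFAT letters were in 20.3% of the 266 dense regions lower in SKG iNKT2 and in 7.07% of the 99 that were higher. In the same lower and higher regions, the Egr letters were in 3.76% and 2.02%, beside 3.14% of all dense regions. The AP-1 letters were in 18.05% and 13.1% of them, beside 12.2% of all dense regions. For the RUNX letters these shares were 9.02% and 19.2%, beside 13.5% of all dense regions. The letters of the NF-kB family were in 8.08% of those 99 regions and in 2.43% of all dense regions. The ETS letters (AGGAAGT) were in 18.1% of dense and 18.7% of other regions, and the Egr letters (GTGGGCG) were found in 3.14% of the dense regions and in 3.66% of the others. For the family of AP-1 factors (TGANTCA) the shares in dense and in other regions were 12.2% and 11.4%, and for the factors that bind the E-box (CAGCTG) these shares came to 18.1% and 17.4%. For the letters of GATA factors, which read AGATAAG, they were 4.78% in dense regions and 4.54% in the others. Over all regions of the table, 5.48% held the T-box, 6.54% the NFAT and 5.74% the TCF letters. All shares count windows of 300 bases on both strands, where no overlap between motifs was removed.

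The libraries held 14988590 to 36342635 insertions in the listed regions, and libraries of the same group correlated with r of 0.968 to 0.991 over all regions, on the log2(value + 1) scale. All 6 T cell markers had their gene start in a region, with summed levels of 175.9 to 191 CPM in iNKT1 and 93.6 to 139.7 in iNKT2. Cd2 was at 32.1 to 39.9 in iNKT1, 2.10 to 3.67 in BALB/c iNKT2 and 8.08 to 12.6 in SKG iNKT2. Lck and Zap70 were also lower in iNKT2 without overlap, while Cd3e, Cd3d and Cd3g overlapped. The 4 iNKT1 markers (Tbx21, Il2rb, Ifng, Cxcr3) summed to 196 to 220.4 in iNKT1 and 43.8 to 63.8 in iNKT2, and the 4 iNKT2 markers to 64.4 to 74.5 in iNKT1 and 69.8 to 116 in iNKT2. Of these 4, Il17rb was higher in iNKT2 (6.74 to 9.26 in iNKT1 and 15.1 to 18.9 in iNKT2) and Il4 lower (10.3 to 18.95 and 2.23 to 10.1), while Ccr7 (12.5 to 19.44 and 19.42 to 47.5) and Zbtb16 (28.9 to 34.3 and 21.6 to 39.8) overlapped. Of markers of iNKT17 cells, another subset, Il23r, Ccr6 and Il17a summed to 0.128 to 0.578 in iNKT1, 8.31 to 12.4 in BALB/c iNKT2 and 6.33 to 8.45 in SKG iNKT2. Within this sum Il17a was at 4.49 to 6.18 in BALB/c iNKT2 and 0.624 to 1.75 in SKG iNKT2, and Ccr6 at 0.660 to 1.08 and 2.38 to 3.03. Their part in the subset differences was not tested. The 4 immature thymocyte, 4 thymic epithelial and 3 erythroid markers had no region at their starts. Of 5 B cell markers only Ebf1 had one (1.99 to 3.88 CPM), and of 4 myeloid markers only Itgam and Cebpa, summing to 3.52 to 6.29 in iNKT1 and 6.0 to 12.8 in iNKT2. These went opposite ways, with Cebpa at 1.61 to 2.37 in iNKT1 and 6.0 to 12.5 in iNKT2 and Itgam at 1.22 to 3.91 and 0 to 0.951. Fewer cells of a kind and less open chromatin per cell cannot be told apart in such bulk samples.

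In BALB/c mice, dense windows were more often higher in iNKT1 than in iNKT2, whereas over all windows the reverse held. The insertions of a window's kept regions were summed and tested with edgeR's quasi-likelihood test over all 13506 windows with a kept region, and a window was called at an adjusted p under 0.01 and at least 2-fold. Of the 747 dense windows, 100 were called lower in iNKT2 and 18 higher, whereas 8.76% and 29.7% of all windows were. The share of dense windows lower in iNKT2 was 13.4% and the share higher was 2.41%. A dense window summed a median of 22 kept regions. Counted before the exclusions, the median was 24 regions in a dense window and 5 over all windows with any region. A sum over many regions averages changes of unlike direction. In every comparison, dense windows and all windows may therefore reach 2-fold at unlike rates, which was not tested. The median log2 change was -0.51 over dense windows and 0.33 over all windows. Scaling moved this balance. Without TMM factors 47 dense windows were lower and 24 higher, with medians of -0.22 in dense and 0.61 in all windows, and after quantile normalization 40 were lower and 31 higher, with medians of -0.06 and -0.03.

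Windows named for their change also had to have no overlap between the libraries of the groups, so their separation follows from the choice. In this comparison the groups did not overlap in 665 dense windows (89.0%) and in 82.4% of all windows.

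Among single regions, called at an adjusted p under 0.01 over all 94823 regions and at least 4-fold, 1597 dense regions (9.03%) were higher in BALB/c iNKT2 and 1519 (8.58%) lower, beside 15.5% and 6.36% of all regions. Without TMM factors the counts were 1934 and 1154, and after quantile normalization 904 and 2309. The shares moved with level. In the lowest quartile of mean level 27.8% of dense and 40.9% of other regions were higher in iNKT2, and in the highest quartile 1.56% and 4.31%. The share higher in iNKT1 was 7.86% of dense and 4.73% of other regions in the lowest quartile and 8.56% and 7.74% in the highest. In each of the 4 quartiles the share higher in iNKT2 was smaller in dense than in other regions, a difference that was not tested. The SKG libraries did not repeat it in the lowest quartile. Regions without an insertion numbered 79 to 311 in the BALB/c iNKT2 libraries and 1217 and 1855 in BALB/c iNKT1. They numbered 256 to 1293 in SKG iNKT2 and 3435 and 2671 in SKG iNKT1. TMM factors were 1.06 to 1.19 in BALB/c iNKT2 and 0.921 and 0.917 in BALB/c iNKT1. Whether this bears on the shares at low level was not tested.

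**Figure D1:**
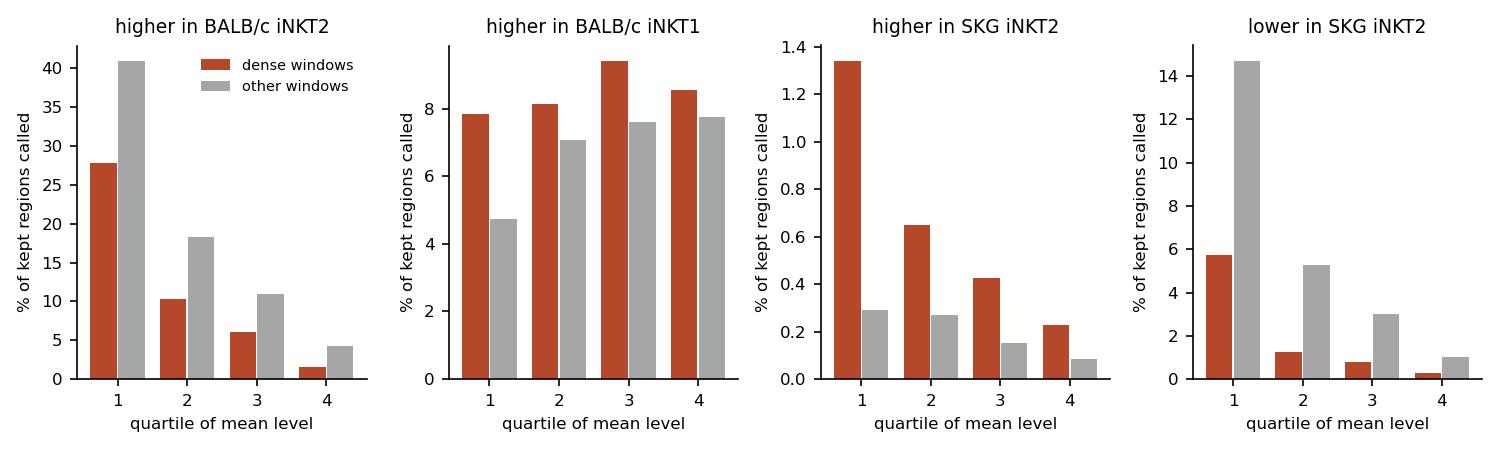
Percent of kept regions called (vertical axes, each from 0) by quartile of mean level over all kept regions (horizontal axes, 1 lowest), in dense windows (red) and other windows (grey), for the BALB/c subset comparison (left pair of panels) and SKG against BALB/c iNKT2 (right pair). In the lowest quartile, 27.8% of dense and 40.9% of other regions were higher in BALB/c iNKT2, and 5.72% and 14.7% were lower in SKG iNKT2.

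The window with the largest gain in iNKT2 held Il17rb, Chdh and ends of Actr8 and Cacna1d (chr14:30000001-30100000, 21 kept regions). Il17rb encodes a chain of the interleukin 25 receptor. Its kept regions summed to 12.3 and 10.8 CPM in BALB/c iNKT1 and to 123, 126 and 131 CPM in BALB/c iNKT2, a log2 change of 3.45 ± 0.12 (SE, adjusted p = 1.8e-09). All 3 iNKT2 libraries stood far above both iNKT1 libraries, and 20 of the 21 regions were called higher. The leading region there, whose sequence is given above, was at 3.20 and 2.42 in iNKT1 and 28.0, 28.1 and 30.1 in iNKT2, a log2 change of 3.34 ± 0.17 (SE, adjusted p = 4e-09). The Mboat1 window (chr13:30100001-30200000) came next, with 13.0 and 12.03 in iNKT1 and 66.3, 80.4 and 72.1 in iNKT2, a log2 change of 2.54 ± 0.13 (SE, adjusted p = 7.6e-09). Mboat1 encodes a membrane-bound acyltransferase of phospholipids, and 15 of its 19 regions were higher. In the window of Igf1r, the receptor for insulin-like growth factor, with Pgpep1l and Fam169b (chr7:68200001-68300000), the levels were 31.9 and 18.1 in iNKT1 and 134, 154 and 135 in iNKT2, a log2 change of 2.49 ± 0.19 (SE, adjusted p = 1.6e-07). The iNKT1 libraries of the Igf1r window lay further apart than those of the other two.

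Toward iNKT1, the largest change was in the window of Klrd1 and Klre1, receptors of natural killer cells, with Gabarapl1, Olr1 and Tmem52b (chr6:129500001-129600000). Its 25 kept regions summed to 226 and 208 in BALB/c iNKT1 and 38.9, 36.6 and 43.2 in BALB/c iNKT2, a log2 change of -2.46 ± 0.10 (SE, adjusted p = 2.6e-09). Both iNKT1 libraries were high and all 3 iNKT2 libraries low, and 17 regions were called lower in iNKT2. A window on chromosome 2 without a protein-coding gene (chr2:128400001-128500000), which holds the noncoding genes Gm14005, Gm14010 and Gm29010, was at 200.0 and 191 in iNKT1 and 49.6, 37.4 and 35.1 in iNKT2, a log2 change of -2.26 ± 0.13 (SE, adjusted p = 1.4e-08). Its leading region, which held the T-box letters, lay 183944 bp from the nearest protein-coding gene start, that of Spdye4c. The window of Tbx21, with Tbkbp1 and Kpnb1 (chr11:97100001-97200000), was at 379 and 347 in iNKT1 and 105, 66.1 and 69.5 in iNKT2, a log2 change of -2.18 ± 0.20 (SE, adjusted p = 8.3e-07). A region in an intron of Tbx21 (chr11:97104107-97104434), the gene of T-bet, fell from 22.2 and 25.1 in iNKT1 to 0.502, 0.106 and 0.247 in iNKT2, a log2 change of -6.38 ± 0.36 (SE, adjusted p = 6.4e-09). In total 20 of the 32 kept regions of this window were lower in iNKT2 and 0 higher.

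**Figure D2:**
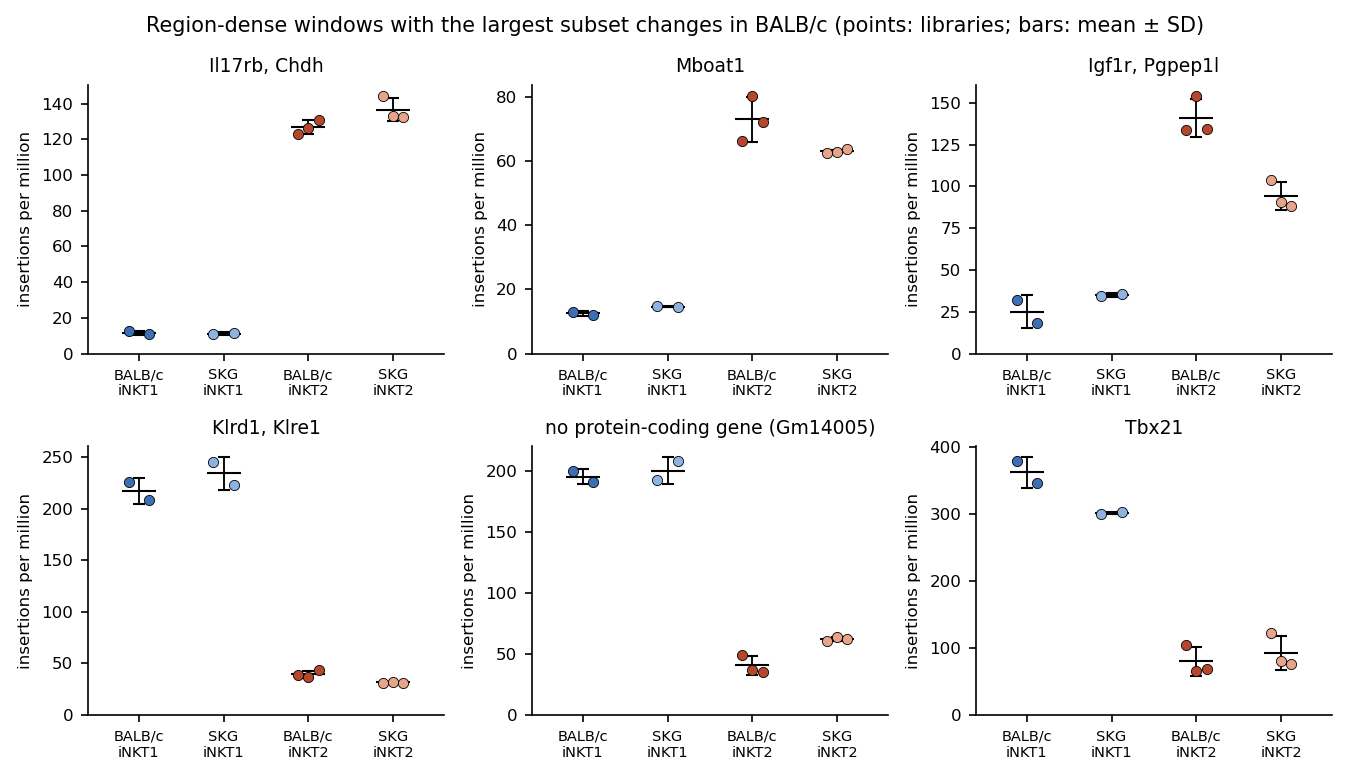
Summed level of the kept regions (CPM, vertical axes from 0) in the 3 dense windows with the largest gain and the 3 with the largest loss in BALB/c iNKT2 against BALB/c iNKT1, by group. Points are libraries and bars are mean ± SD; the windows were chosen among those whose BALB/c groups did not overlap, and the Il17rb window rose from 10.8 to 12.3 in iNKT1 to 123 to 131 in iNKT2.

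The windows with the most regions changed less as sums than these. The densest, around Ugcg (chr4:59200001-59300000, 62 regions), the gene of glucosylceramide synthase, was at 617 and 602 in BALB/c iNKT1 and 418, 323 and 323 in BALB/c iNKT2, a log2 change of -0.78 ± 0.12 (SE, adjusted p = 4.8e-05). The iNKT1 libraries were higher without overlap, but the change stayed under 2-fold. An intergenic region there (chr4:59231345-59232129) fell from 57.4 and 57.2 to 12.5, 8.89 and 8.58, a log2 change of -2.52 ± 0.17 (SE, adjusted p = 1.8e-08). The window inside Zbtb16 (chr9:48700001-48800000, 60 regions) was at 207 and 185 in iNKT1 and 245, 244 and 249.9 in iNKT2, with a log2 change of 0.33 ± 0.11 (adjusted p = 0.015). The groups did not overlap, and 12 of its regions were called higher in iNKT2 and 0 lower. The neighbouring window at another part of Zbtb16 (chr9:48600001-48700000) was called, with 1.45. The third, chr9:48800001-48900000, holds the start of Zbtb16 and went the other way, toward iNKT1, with -0.78, and was not called. Among the next densest windows reported here, only that of Prex1, an activator of the GTPase Rac, was called, with 529 and 516 in iNKT1 and 196, 166 and 149 in iNKT2, a log2 change of -1.62 ± 0.12 (SE, adjusted p = 1.6e-07). The windows of Gpr183 with Gpr18 and Ubac2 (-0.90), Prkch (-0.80), Bcl11b (-0.68) and Chd2 (-0.33) had an adjusted p under 0.01 but changed less than 2-fold. Those of Sfi1 with Drg1 (-0.30, adjusted p = 0.14) and Ets1 (-0.28, adjusted p = 0.022) did not reach that p, and the Chd2, Sfi1 and Ets1 windows took a positive sign after quantile normalization. Bcl11b and Ets1 are T lineage factors, and Gpr183 is a migration receptor.

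Regions of the same dense window often changed in opposite directions. In BALB/c, 692 of the 747 windows held at least 1 region called between the subsets, and 290 held regions called in both directions. With 5 or more regions called in 1 direction and 0 in the other, 61 windows were one-way higher in iNKT2 and 61 one-way lower, and 82 were mixed, with 2 or more called each way. The most regions called in a window were 26 higher and 23 lower. The SD of the log2 change among the regions of a window had a median of 1.31 and ranged from 0.42 to 2.94, and 30.8% of the variance of the log2 change among dense regions lay between windows. Regions of a window share libraries and neighbours and are not replicates. Along the Il17rb window every kept region was higher in iNKT2, whereas along the Zbtb16 window called regions stood among regions that were not called.

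**Figure D3:**
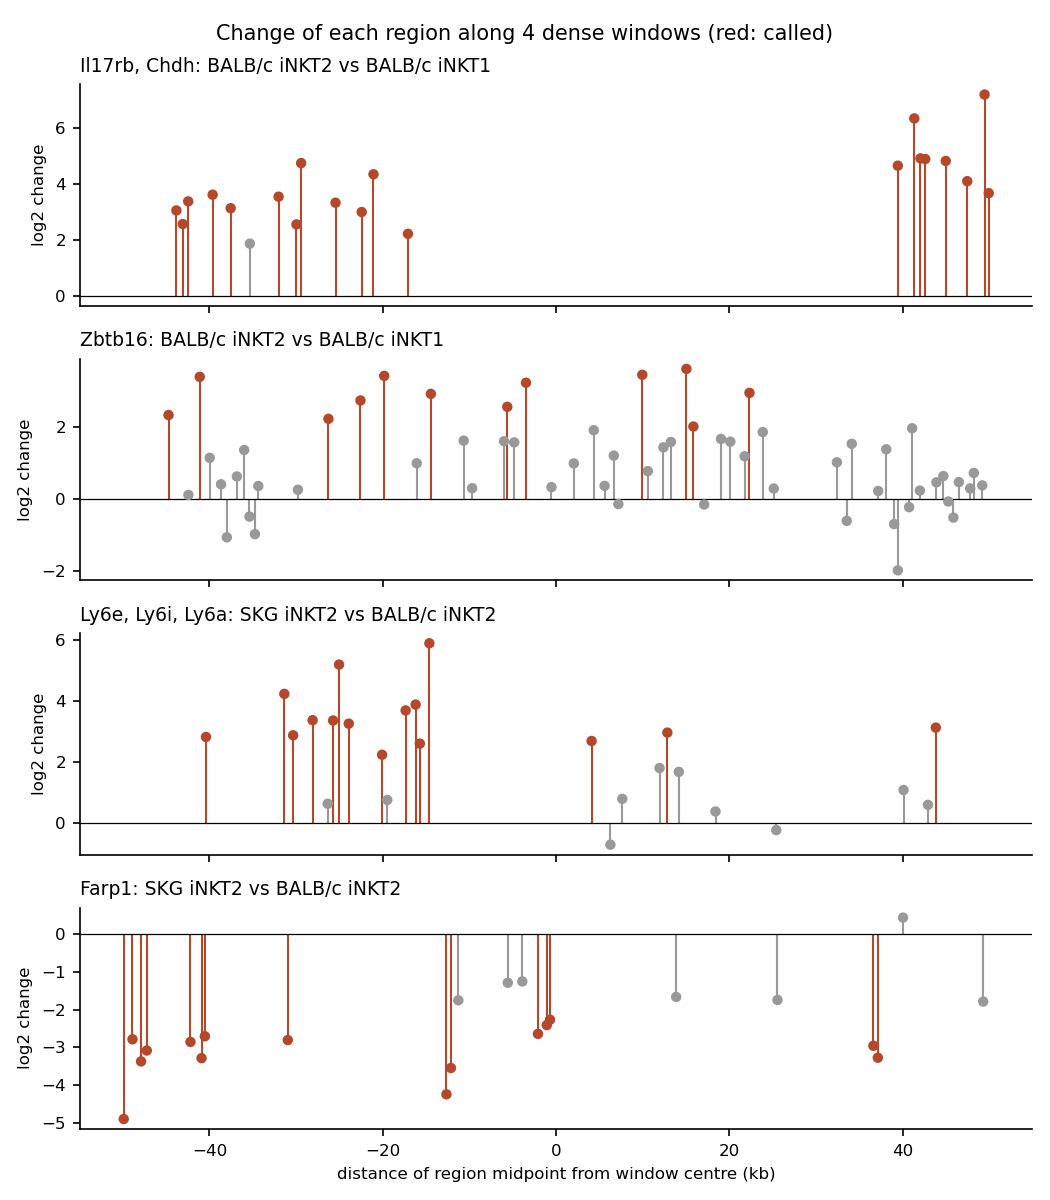
Log2 change of each kept region (vertical axes) by distance of its midpoint from the window's centre in kb (horizontal axis) for 4 dense windows, red where called at an adjusted p under 0.01 and 4-fold. The Il17rb and Zbtb16 panels show BALB/c iNKT2 against BALB/c iNKT1, with 20 of 21 and 12 of 60 regions called higher, and the Ly6 and Farp1 panels show SKG against BALB/c iNKT2, with 15 of 25 called higher and 15 of 22 called lower.

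The SKG subset comparison took its group means from other libraries than the BALB/c comparison. All 10 libraries shared the region set, the scaling and 1 fit with 1 estimate of the spread, so the 2 comparisons are not independent. Of the 747 windows, 50 were lower in iNKT2 and 20 higher, against 10.7% and 16.6% of all windows. The median log2 change was -0.30 over dense and 0.20 over all windows. The balance of calls depended on scaling, with 31 lower and 28 higher without TMM factors and 25 lower and 29 higher after quantile normalization. Among dense regions 1665 (9.41%) were higher and 1241 (7.01%) lower, beside 10.2% and 6.96% of all regions, and after quantile normalization the counts were 809 and 1303. In the lowest level quartile 22.2% of dense and 16.7% of other regions were higher in SKG iNKT2, whereas in the other 3 quartiles the dense share was the smaller, with 2.58% and 4.53% in the highest. Across the 747 windows the log2 changes in the 2 strains had a Pearson r of 0.868 and a Spearman rho of 0.836, which describes windows of the same genome and is no test. Of the windows called higher in iNKT2, 13 were called in both strains (72.2% of the 18 in BALB/c and 65.0% of the 20 in SKG). Of those called lower, 43 were shared (43.0% of the 100 and 86.0% of the 50), and none was called in opposite directions.

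The Il17rb and Mboat1 windows again led the gains. In SKG, the Il17rb window was at 10.7 and 11.6 in iNKT1 and 144, 133 and 133 in iNKT2, a log2 change of 3.61 ± 0.12 (SE, adjusted p = 5.4e-10), and the Mboat1 window at 14.8 and 14.4 and 62.6, 62.8 and 63.6, with 2.11 ± 0.13 (adjusted p = 2.9e-08). The third was a window inside Nav2 (chr7:49300001-49400000), which encodes a protein of cell migration and axon growth, with 20.2 and 27.6 in iNKT1 and 102, 103 and 90.1 in iNKT2, a log2 change of 2.04 ± 0.15 (SE, adjusted p = 1.9e-07). A region in an intron of Nav2 (chr7:49364374-49365106), holding the E-box letters, went from 0.578 and 0.513 to 27.3, 37.98 and 38.6. Toward iNKT1, the Klrd1 window led once more, with 245 and 223 in iNKT1 and 31.5, 32.3 and 31.1 in iNKT2, a log2 change of -2.89 ± 0.10 (SE, adjusted p = 7e-10). The window of Ptpn5, a tyrosine phosphatase (chr7:47100001-47200000), was at 141 and 129.7 and 27.2, 13.3 and 14.6, a log2 change of -2.86 ± 0.22 (SE, adjusted p = 2.6e-07). The window of Ifitm1 and Ifitm2, interferon-induced membrane proteins (chr7:140900001-141000000), was at 184 and 216 and 55.0, 34.8 and 33.3, a log2 change of -2.27 ± 0.21 (SE, adjusted p = 1.2e-06). These windows were again chosen among those without overlap, which in this comparison were 77.9% of dense and 71.9% of all windows. Klr, Ifitm and Ly6 genes belong to families of similar copies, and by the study's methods only reads that mapped uniquely were kept, so levels within such families are uncertain.

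**Figure D4:**
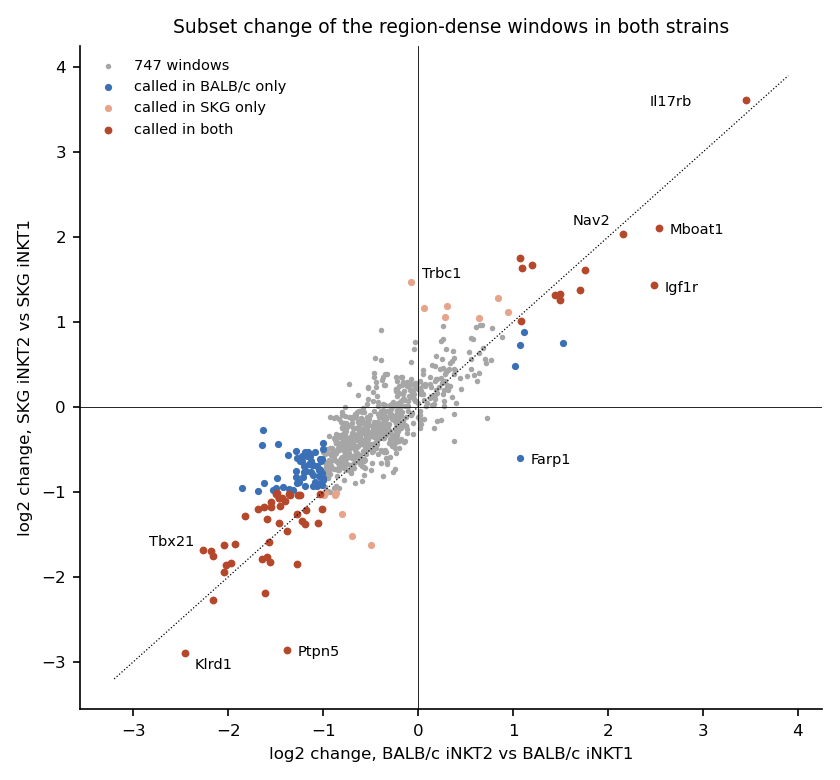
Log2 change of the 747 dense windows between iNKT2 and iNKT1 in BALB/c (horizontal axis) and SKG (vertical axis), with windows called in 1 strain or both in colour and equality dotted. The windows lie along the diagonal (r = 0.868), the Il17rb window is at 3.45 and 3.61, and the Farp1 window stands apart at 1.07 in BALB/c and -0.60 in SKG.

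Between SKG and BALB/c iNKT1 cells few dense windows differed. Of 747, 2 were higher and 2 lower in SKG, beside 1.25% and 1.73% of all windows, most of which sum fewer regions. Among dense regions 29 (0.164%) were higher and 115 (0.650%) lower, against 0.281% and 0.732% of all regions, and after quantile normalization 15 and 20. Each of these counts rests on 2 libraries a group, and the groups did not overlap in 64.4% of dense and 58.9% of all windows. The number of regions called higher was 12 without BALB/c iNKT1 replicate 1, 17 without its replicate 2 and 16 without either SKG iNKT1 library. The number called lower was 36 without BALB/c iNKT1 replicate 1, 53 without its replicate 2, 21 without SKG iNKT1 replicate 1 and 36 without its replicate 2.

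The window of Ly6e, Ly6i and Ly6a (chr15:74900001-75000000) was the most raised in SKG. Ly6a encodes the surface protein Sca-1. Its 25 kept regions summed to 37.6 and 35.6 in BALB/c iNKT1 and 123 and 118 in SKG iNKT1, a log2 change of 1.72 ± 0.17 (SE, adjusted p = 5.6e-05). The same window was at 40.1, 42.7 and 44.9 in BALB/c iNKT2 and 172, 107 and 147 in SKG iNKT2, a log2 change of 1.74 ± 0.14 (SE, adjusted p = 1.2e-06). The SKG libraries were the high ones in both subsets, and 10 and 15 of its regions were called higher. With the regions at gene starts and wide regions included, the change in iNKT1 was 0.85 and under 2-fold. The region with the smallest adjusted p in iNKT1 (chr15:74933557-74934029) was at 0.149 and 0.0882 in BALB/c and 8.22 and 7.19 in SKG. The Galnt10 window (chr11:57600001-57700000), around a gene of protein glycosylation, was at 58.7 and 58.1 in BALB/c iNKT1 and 124 and 123 in SKG iNKT1, a log2 change of 1.08 ± 0.17 (SE, adjusted p = 0.0014). An intronic region of Galnt10 (chr11:57675446-57676171) rose from 1.76 and 2.29 to 36.4 and 39.3. This window was not called without any 1 of the 4 iNKT1 libraries, with adjusted p of 0.017 to 0.034.

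Lower in SKG iNKT1 were the windows of Rin2 and Tec. The window of Rin2, an effector of Ras and Rab proteins (chr2:145800001-145900000), was at 78.0 and 79.8 in BALB/c and 27.4 and 37.8 in SKG iNKT1, a log2 change of -1.28 ± 0.15 (SE, adjusted p = 0.00015). In iNKT2 it was at 118, 132 and 119 and 69.8, 60.2 and 72.9, with -0.86 ± 0.12 (adjusted p = 8.6e-05), under 2-fold. The window of Tec, a nonreceptor tyrosine kinase (chr5:72800001-72900000), was at 143 and 148 in BALB/c and 68.1 and 71.6 in SKG iNKT1, a log2 change of -1.06 ± 0.10 (SE, adjusted p = 2.2e-05). In iNKT2 the Tec window was at 135, 149 and 144 in BALB/c and 118, 118 and 122 in SKG, a log2 change of -0.26 ± 0.08 (adjusted p = 0.018).

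Between SKG and BALB/c iNKT2 cells, few dense windows differed by 2-fold, and with TMM scaling most of the smaller differences were gains in SKG. Of 747, 4 were called lower in SKG and 4 higher, beside 13.4% and 0.526% of all windows. Most of all windows sum fewer regions, so the 2-fold limit does not weigh alike on both. The median log2 change was 0.16 over dense and -0.15 over all windows. These medians were 0.12 and -0.18 with DESeq2 and 0.03 and -0.28 without TMM factors. After quantile normalization they were 0.02 and 0.11, so that the order turned. Among dense regions 266 (1.5%) were lower and 99 (0.560%) higher, beside 4.73% and 0.252% of all regions. At an adjusted p under 0.01 and any fold, 34 dense windows were lower and 134 higher, beside 19.6% and 4.58% of all windows, and 949 dense regions were lower and 1094 higher, beside 10.1% and 4.02% of all regions. With the 4-fold limit, quantile normalization turned the balance, with 187 dense regions lower and 452 higher. The counts at any fold were not taken under other scalings. The groups did not overlap in 48.6% of dense and 46.2% of all windows. The number of dense regions called lower was 177 without SKG iNKT2 replicate 2. In the lowest level quartile 5.72% of dense and 14.7% of other regions were lower in SKG, and in the highest 0.263% and 1.00%. This difference was not tested. Regions without an insertion numbered 79 to 311 in BALB/c and 256 to 1293 in SKG iNKT2 libraries, and their part in it was not tested. Of the 1597 dense regions higher in BALB/c iNKT2 than iNKT1, 155 (9.71%) were lower in SKG iNKT2, and of the 12798 such other regions 2959 (23.1%) were. These 2 comparisons share the BALB/c iNKT2 libraries, so the shares describe the same high values and give no independent support.

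The Farp1 window fell most in SKG iNKT2. Farp1 encodes an exchange factor for small GTPases, and its window (chr14:121100001-121200000) was at 162, 147 and 148 in BALB/c iNKT2 and 29.6, 28.9 and 31.8 in SKG iNKT2, a log2 change of -2.34 ± 0.09 (SE, adjusted p = 6.6e-09). The 3 SKG libraries were low and close together, and 15 of 22 regions were called lower. The leading region, given above with its T-box and Egr letters, was at 17.5, 14.8 and 15.2 in BALB/c and 1.78, 2.16 and 1.62 in SKG. In iNKT1 the window was at 76.0 and 68.7 in BALB/c and 46.6 and 44.3 in SKG, a log2 change of -0.67 ± 0.11 (SE, adjusted p = 0.0018), which is under 2-fold. The window was thus higher in iNKT2 than in iNKT1 in BALB/c and lower in SKG, with subset changes of 1.07 and -0.60.

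Of the other 3 windows that fell, 2 held phosphatase genes. The Ptpn5 window was at 82.2, 69.3 and 70.7 in BALB/c and 27.2, 13.3 and 14.6 in SKG iNKT2, a log2 change of -1.99 ± 0.21 (SE, adjusted p = 8.5e-06), with 11 of 20 regions lower. The window of Ptprj (chr2:90500001-90600000), a receptor-type tyrosine phosphatase that acts on receptor-proximal kinases, was at 127, 108 and 113 in BALB/c and 44.2, 42.4 and 39.6 in SKG iNKT2, a log2 change of -1.46 ± 0.09 (SE, adjusted p = 2e-07). Here too 11 regions were lower, and the leading region, which holds the NFAT and RUNX letters, went from 10.8, 8.49 and 9.23 to 1.13, 1.42 and 1.01. The fourth called window, of Chst11, a chondroitin sulfotransferase, had a log2 change of -1.01 and is named after its value was seen.

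Higher in SKG iNKT2, after the Ly6 window, were 2 windows of the T cell receptor beta locus. The window with Prss2, the Trbd and Trbj segments and the constant genes Trbc1 and Trbc2 of the receptor's beta chain (chr6:41500001-41600000) was at 123, 119 and 119 in BALB/c and 315, 401 and 352 in SKG iNKT2, a log2 change of 1.56 ± 0.09 (SE, adjusted p = 1.1e-07). In iNKT1 it was at 126 and 127 in BALB/c and 124 and 133 in SKG, so that only the 3 SKG iNKT2 libraries stood high. The window with variable segments from Trbv12-1 to Trbv20 (chr6:41100001-41200000) was at 101, 126 and 124 in BALB/c and 254, 366 and 322 in SKG iNKT2, a log2 change of 1.42 ± 0.12 (SE, adjusted p = 2e-06), and at 113 and 111 and 135 and 144 in iNKT1. In the constant-part window 7 of 30 regions were called higher and in the variable-part window 4 of 23. These segments are rearranged in T cells and resemble each other, so the levels there are uncertain. The fourth window was that of Il4ra (chr7:125500001-125600000), the interleukin 4 receptor chain, at 73.2, 62.1 and 60.5 in BALB/c and 221, 139 and 153 in SKG iNKT2, a log2 change of 1.39 ± 0.15 (SE, adjusted p = 9.7e-06). In iNKT1 it was at 201 and 205 and 197 and 217, so that 1 SKG iNKT2 library lay above the iNKT1 libraries and 2 below them, and all 3 above those of BALB/c iNKT2.

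**Figure D5:**
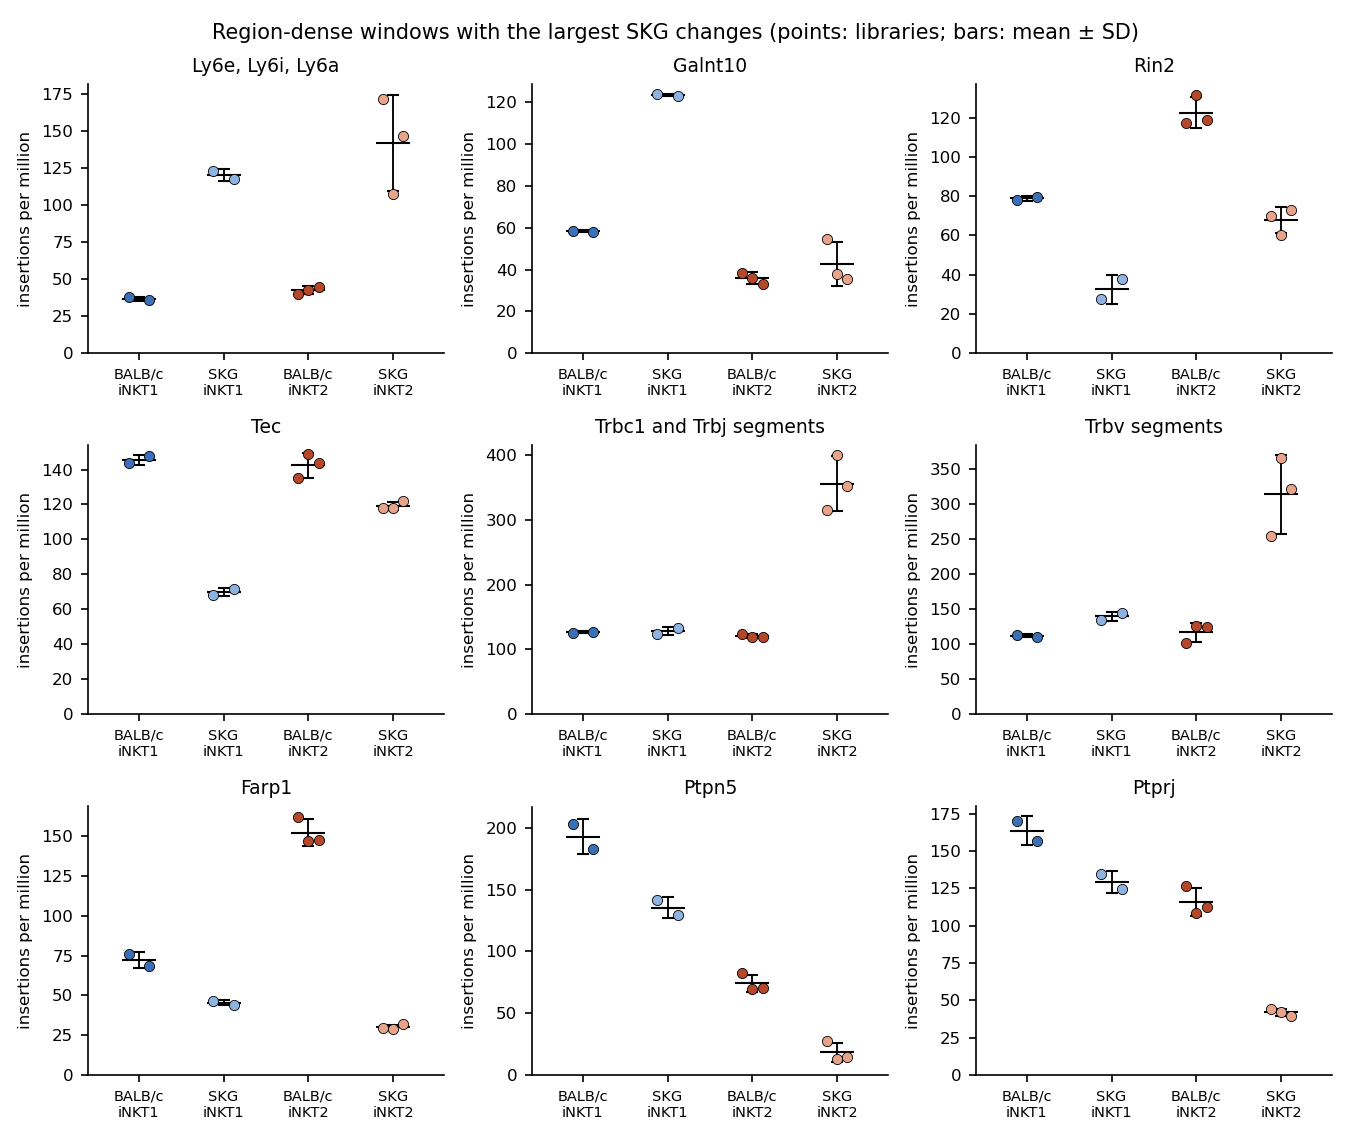
Summed level of the kept regions (CPM, vertical axes from 0) in the 9 dense windows named for a difference between SKG and BALB/c, by group. Points are libraries and bars are mean ± SD; the Ly6 window was high in SKG of both subsets (107 to 172, against 35.6 to 44.9 in BALB/c), the Trbc1 and Trbv windows in SKG iNKT2, and the Farp1, Ptpn5 and Ptprj windows were lowest in SKG iNKT2.

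Whether the SKG change differed between the subsets was tested as an interaction, the change in iNKT2 minus that in iNKT1. In 6 dense windows it was higher and in 3 lower, beside 0.311% and 3.71% of all windows. Among dense regions 82 (0.463%) were higher and 11 (0.0622%) lower, beside 0.189% and 0.341% of all regions. With the replicate block, which fits the numbered pairs, 187 and 43 regions and 7 and 4 windows were called. With DESeq2 the counts were 141 and 45 regions and 5 and 4 windows, and after quantile normalization 2 and 3 windows. These counts moved with single libraries. The regions called higher numbered 34 and 11 without BALB/c iNKT1 replicate 1 and 2, 132, 46 and 29 without BALB/c iNKT2 replicate 1, 2 and 3, and 7 and 20 without SKG iNKT1 replicate 1 and 2. The regions called lower numbered 0 without any 1 of the 4 iNKT1 libraries, 1 and 3 without BALB/c iNKT2 replicate 2 and 3, and 35, 5 and 2 without SKG iNKT2 replicate 1, 2 and 3. Windows called higher fell to 2 without BALB/c iNKT1 replicate 2 or SKG iNKT1 replicate 1, and windows called lower rose to 5 without SKG iNKT2 replicate 1. The 9 windows are given with their values in the closing section.

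The gene lists were chosen with earlier results of these data known, and their counts are descriptions. Windows at genes of iNKT1 and type 1 effector function were mostly higher in iNKT1. Of 32 listed genes, 15 overlapped dense windows, 15 in all, and 11 of these were lower in BALB/c iNKT2 and 0 higher, with a median log2 change of -1.42. Over all dense windows 13.4% were lower and 2.41% higher in BALB/c, with a median of -0.51, and in SKG 6.69% were lower and 2.68% higher, with a median of -0.30. In SKG 9 of the 15 were lower and 0 higher (median -1.21). Beside Klrd1 and Tbx21, the largest changes in BALB/c were at Stat4, which relays interleukin 12 signals (-2.16 ± 0.13 (adjusted p = 2.1e-08)), and Ifngr1, the interferon gamma receptor (-2.05 ± 0.09 (adjusted p = 2.8e-09)). Of 2 windows named for their genes after the values were seen, that of Il2rb, part of the sorting gate, was at -1.18, and that of Ifng at -0.98, under 2-fold.

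Windows at iNKT2 and type 2 genes were called in both directions. Of 24 genes, 17 overlapped 18 dense windows, and in BALB/c 2 of these were higher in iNKT2 and 4 lower, beside 2.41% and 13.4% of all dense windows, with a median of 0.14 beside -0.51. The 2 were Il17rb and a Zbtb16 window (1.45 ± 0.11 (adjusted p = 1.6e-07)). The windows of Il4ra (-1.64 ± 0.16 (adjusted p = 1.2e-06)), Plac8 (-1.17 ± 0.09 (adjusted p = 1.1e-07)), Ccr8, a chemokine receptor (-1.13 ± 0.19 (adjusted p = 0.00013)), and Il5 with Rad50 (-1.01 ± 0.10 (adjusted p = 2.1e-06)) were higher in iNKT1. In SKG the same count of 2 was higher and 0 lower, and the Il4ra window was the 1 raised in SKG iNKT2. The windows of Il4 with Il13 (-0.45) and of Gata3 (-0.77) were not called; these, Ccr8 and Il5 are named after their values were seen.

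Among cytokine receptor and Jak-Stat genes, 17 of 30 overlapped 17 dense windows, of which 6 were lower in BALB/c iNKT2 and 0 higher (median -0.66), and 2 lower in SKG, beside 13.4% and 6.69% of all dense windows lower in the 2 strains. After Stat4 and Ifngr1, which the type 1 list also holds, came Il4ra and Il21r, the interleukin 21 receptor (-1.49 ± 0.24 (adjusted p = 0.00011)). Of 49 genes of receptor signalling and its induced targets, 28 overlapped 33 dense windows, with 3 lower in BALB/c iNKT2 and 0 higher (median -0.47), and 1 lower in SKG. Both counts are smaller shares than the 13.4% and 6.69% of all dense windows, and the median is close to theirs of -0.51. The 3 were the windows of Cd6, a surface modulator of receptor signals (-1.28 ± 0.14 (adjusted p = 3.8e-06)), Ubash3a, which dampens them (-1.21 ± 0.16 (adjusted p = 2.3e-05)), and Zap70 (-1.07 ± 0.12 (adjusted p = 5e-06)). The 1 in SKG was that of Fyn, a Src family kinase, with -1.03. Neither T lineage factors (11 of 22 genes in 15 windows, median -0.46) nor adhesion and migration genes (10 of 22 in 11 windows, median -0.63) had a window called in BALB/c. Among T lineage factors the largest changes were at another Ets1 window than the one given above (-0.99) and at Ikzf1 (-0.87). Among the adhesion and migration genes they were at the integrin gene Itgal (-0.99) and S1pr4, a sphingosine phosphate receptor (-0.98). In SKG 1 T lineage window was higher in iNKT2, a Runx1 window, with 1.18. In no list was a window called between SKG and BALB/c iNKT1, and between the iNKT2 groups the only call was Il4ra, which 2 lists hold.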

How the data were processed

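The authors deposited 1 table of counts, the transposase insertions in each of 94823 regions of mm10 in 10 ATAC-seq libraries. By the study's methods, reads were mapped with Bowtie 1.0 keeping unique hits, and unmapped reads were trimmed with Trim Galore and mapped again. Duplicate and mitochondrial reads were removed with Picard, summits of subnucleosomal fragments were called per replicate with MACS2, and these were merged into 1 set, without chromosome Y and blacklisted regions. The region set therefore depends on all libraries, and unique mapping lowers counts in multi-copy genes. Totals ran from 14988590 to 36342635 insertions, and rarely cut regions are the least precise.

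All regions, and all 13506 windows with a kept region (summed counts), were fitted over the 4 groups with edgeR 4.0.16 in R 4.3.3 (quasi-likelihood, TMM factors of the region table, Benjamini-Hochberg adjustment). Standard errors are the log2 change over the square root of F. Calls needed an adjusted p under 0.01 and 4-fold (regions) or 2-fold (windows). Gene positions came from GENCODE M21 on GRCm38. Levels are CPM of the TMM-scaled library. The test was tried on simulated counts with known changes. Alternatives were DESeq2 1.42.0, limma 3.58.1, other scalings, filters, rules, thresholds and leaving out each library.

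Windows named were the 10 with the most regions (1 of them is not reported here), up to 3 called windows per direction and comparison with the largest change and no overlap of libraries, and up to 4 examples per gene list, each with its region of smallest adjusted p. The design also provided for sequences of all such regions with motif letters, of which some are printed. The members and lists were chosen with earlier results of these data known.

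Replicate numbers were checked for pairing by correlating deviations from group means. Same-numbered BALB/c and SKG iNKT2 libraries had r of 0.517, 0.181 and 0.224 (each over 0.1, the limit set for pairing), although replicate 2 of either strain correlated better with replicate 3 of the other (0.201 and 0.308). The values given are from the fit without the replicate block, as designed. With the block, 99 dense regions were higher and 305 lower in SKG iNKT2, and 4 windows each way, as many windows as without it. The other comparisons had 2 numbers in common, with r of -0.00937 between genotypes in iNKT1, 0.161 and 0.119 between BALB/c subsets and 0.00321 and -0.0131 between SKG subsets.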

Additional observations from a re-analysis of the deposited data

Results flagged for a closer look

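In 9 dense windows the change from BALB/c to SKG differed between the subsets by the interaction test of edgeR, at an adjusted p under 0.01 and at least 2-fold. Without 1 library at a time, 2 to 7 windows were called higher and 2 to 5 lower, so not all 9 calls held. In 3 of the 9 windows the log2 change in iNKT2 was the lower. The Farp1 window changed by -2.34 in iNKT2 and -0.67 in iNKT1, a difference of -1.67 ± 0.14 (SE, adjusted p = 3.9e-05). The Ptpn5 window changed by -1.99 in iNKT2 and -0.51 in iNKT1, a difference of -1.48 ± 0.31 (SE, adjusted p = 0.0083). The Ptprj window changed by -1.46 in iNKT2 and -0.34 in iNKT1, a difference of -1.12 ± 0.14 (SE, adjusted p = 0.00044). In all 3 windows the SKG libraries lay below the BALB/c libraries in both subsets. In iNKT1 the adjusted p of this change by edgeR was 0.0018 for Farp1, 0.23 for Ptpn5 and 0.077 for Ptprj. Groups without overlap, in either direction, were common, with 64.4% of dense and 58.9% of all windows in iNKT1. In iNKT2 they were 48.6% and 46.2%.

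The other 6 had the higher change in iNKT2. The window of Kdm2b, a histone demethylase, was at 137 and 150.4 CPM in BALB/c iNKT1, 112 and 109 in SKG iNKT1, 117, 104 and 93.9 in BALB/c iNKT2 and 197, 138 and 158 in SKG iNKT2, and the difference was 1.03 ± 0.19 (SE, adjusted p = 0.0044). The window of Furin, a proprotein convertase, with Blm was at 293 and 283 CPM in BALB/c iNKT1, 183 and 208 in SKG iNKT1, 96.2, 93.1 and 87.6 in BALB/c iNKT2 and 159, 141 and 131 in SKG iNKT2, and the difference was 1.20 ± 0.14 (SE, adjusted p = 0.00027). The window of Tnfaip3, an inhibitor of NF-kB signalling, was at 157 and 221 CPM in BALB/c iNKT1, 124 and 138 in SKG iNKT1, 132, 151 and 150.1 in BALB/c iNKT2 and 299, 216 and 225 in SKG iNKT2, and the difference was 1.30 ± 0.22 (SE, adjusted p = 0.0025). In these windows all SKG libraries lay below those of BALB/c in iNKT1 and above them in iNKT2, a separation that many windows had. In iNKT1 the adjusted p of the change by edgeR was 0.15 for Kdm2b, 0.0058 for Furin and 0.077 for Tnfaip3. For the window of Il4ra the changes were 1.39 in iNKT2 and 0.03 in iNKT1, a difference of 1.36 ± 0.23 (SE, adjusted p = 0.0023). For the window of Trbc1 and Prss2 the changes were 1.56 in iNKT2 and 0.02 in iNKT1, a difference of 1.54 ± 0.14 (SE, adjusted p = 5.7e-05). For the window of the Trbv segments the changes were 1.42 in iNKT2 and 0.32 in iNKT1, a difference of 1.11 ± 0.19 (SE, adjusted p = 0.003). The last 2 lie in the T cell receptor beta locus, where levels are uncertain.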

How the results depend on the processing

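The subset comparisons kept more dense windows lower than higher in BALB/c under each alternative run, but in SKG the order turned after quantile normalization. Scaling, filters and thresholds moved counts, and the cause was not tested except where fewer features or a looser limit set it. Counts follow as higher and lower.

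Without TMM factors, 47 BALB/c and 31 SKG windows were lower in iNKT2, and the interaction had 43 and 6 regions. DESeq2 gave 141 and 45 interaction regions. With voom and limma these were 45 and 2, and 52 regions were lower in SKG iNKT1. After quantile normalization the BALB/c subsets had 904 and 2309 regions and 31 and 40 windows, SKG subsets 809 higher regions and 25 lower windows, the iNKT1 genotypes 15 and 20 regions and 1 and 1 window, SKG iNKT2 452 higher regions, and the interaction 2 higher windows and 2 lower regions. Leaving out the lower quartile of regions by mean insertions, which tests fewer regions, left 977 and 967 regions between BALB/c subsets, 19 higher between the iNKT1 genotypes and 42 and 135 in SKG iNKT2. The replicate block gave 187 and 43 interaction regions and 178 lower between the iNKT1 genotypes, where the shared numbers do not mark pairs. It moved no other count by over 1.5 times.

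At an adjusted p under 0.05 with 2-fold (regions) or 1.5-fold (windows), BALB/c subsets had 3079 and 4418 regions and 34 and 322 windows, SKG subsets 3536 and 3431 and 42 and 182, SKG iNKT1 129 and 562 regions and 16 lower windows, SKG iNKT2 822 and 1083 and 35 and 15, and the interaction 582 and 102 and 52 and 7. With all regions of a window summed, 10 windows were higher between BALB/c subsets, 1 lower and 0 higher between the iNKT1 genotypes and 1 lower in the interaction. With the mean of log2 levels, 43 BALB/c and 27 SKG windows were lower, 1 and 1 differed in SKG iNKT1, 2 were higher in SKG iNKT2, and 2 and 1 were called in the interaction.

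With 15 or more regions per window, windows called were 3.88% higher between BALB/c subsets, 0.121% and 0.485% in SKG iNKT1 and 0.303% and 0.909% in SKG iNKT2, and interaction regions lower were 0.109%. With 25 or more, windows were 0.568% higher between BALB/c subsets, 1.14% higher between SKG subsets, 0% lower between the iNKT1 genotypes, 0.852% and 0% in SKG iNKT2 and 0% lower in the interaction, with 0.0301% of interaction regions lower. With edges shifted by 50 kb, windows were 1.44% higher between BALB/c subsets, 0% higher in SKG iNKT1 and 0.262% lower both for the interaction and in SKG iNKT2, and 0.0614% of regions were higher in SKG iNKT1.

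Leaving out 1 library at a time, regions ranged over 1358 to 1681 and 1315 to 1786 between BALB/c subsets, 1182 to 1755 and 1110 to 1570 between SKG subsets, 12 to 37 and 21 to 143 in SKG iNKT1, 75 to 131 and 177 to 391 in SKG iNKT2, and 7 to 132 and 0 to 35 in the interaction. Windows ranged over 16 to 19 and 74 to 123, 16 to 24 and 40 to 66, 1 to 2 and 2 to 3, 4 to 5 and 3 to 5, and 2 to 7 and 2 to 5 in the same order.

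Uncalled windows changed sign between BALB/c subsets. That of Ets1 went to 0.007 without TMM factors and to 0.28 after quantile normalization, as did those of Chd2 (0.24) and Sfi1 (0.26), and Chd2 was at 0.0047 with the mean of log2 levels. Of the values of named windows under alternatives, 689 kept direction and call, 62 lost the call, 4 gained it and 5 changed sign.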
